A study of Mus musculus with 2 samples.

Results

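Expression of 36 genes for lysosomal enzymes and membrane proteins was compared between WT and STAP-1 KO leukemic stem cells (LSCs) from mice with chronic myeloid leukemia (CML). The genes were taken by symbol from a list that was written with earlier results of these data known, and all 36 were present among the 23284 gene symbols of the data. They comprised 12 cathepsins and other proteases, 6 glycosidases, 6 lipid enzymes and soluble cofactors, 6 membrane proteins, and 6 subunits of the vacuolar proton pump (V-ATPase). Of these, 35 genes were at 0.1 FPKM or more in both libraries and could be compared, and the other was Ctsk. FPKM counts mapped fragments relative to the length of the exons and to the total of mapped fragments, so that levels of different genes are given per length of transcript.

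In the model, hematopoietic stem and progenitor cells (LSK cells, which lack lineage markers and carry Sca-1 and c-Kit) were transduced with a retrovirus that carries human BCR-ABL and green fluorescent protein (GFP), and were then transplanted into lethally irradiated C57BL/6SJL recipients (Ly5.1) together with normal bone marrow cells. Donor cells of the WT group came from wild-type mice and those of the STAP-1 KO group from mice with a disrupted STAP-1 gene, both on the C57BL/6J background (Ly5.2), and the mice were 8 to 14 weeks old. Donor LSK cells that were GFP+ CD45.2+ were sorted on day 11 after the first transplantation, so BCR-ABL was present in both groups. Each group had 1 library, no difference has a replicate check, and no test was possible. The number of mice behind each library was not given in the sources used here, and genotype cannot be told apart from differences between mice, sorts or library preparations. Stap1 had 62.0 FPKM in WT LSCs and 0.309 FPKM in STAP-1 KO LSCs, which matches the labelled genotypes. The sort markers were detected in both libraries, with Kit at 468 and 30.1 FPKM, Ly6a (Sca-1) at 285 and 106 FPKM, both lower in STAP-1 KO LSCs. Of 9 genes of the sort and of stem cells, 4 were at least 2-fold lower (44.4%, against 22.9% of all genes compared). In that list 1 was higher, the stem cell gene Slamf1 at 3.39 and 8.67 FPKM. From the steps between low values, the effective depths were estimated at 7497360 reads for WT and 10467800 reads for STAP-1 KO. All intervals in the text are 95% intervals from these estimated reads and cover counting error only.

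Lysosomes break down proteins, glycans, lipids and nucleic acids with hydrolases that work at acid pH. The V-ATPase, with a membrane-bound V0 sector and a cytosolic V1 sector, pumps protons into the lumen, and most soluble hydrolases are delivered from the Golgi by mannose 6-phosphate receptors. Many lysosomal genes carry CACGTG-containing motifs near their start, to which the transcription factors TFEB, TFE3 and MITF can bind. In granulocytes and mast cells, related organelles serve as secretory granules and hold several of the same proteins.

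Expression of the lysosomal genes was lower in STAP-1 KO LSCs over much of the list. At a cut-off of 2-fold, 19 of the 35 genes compared were lower and 0 were higher, whereas among all 12507 genes compared 22.9% were lower and 12.3% were higher. With both libraries at 1 FPKM or more, the same 19 of 35 genes were lower, against 19.3% lower and 10.6% higher among 10108 genes. Because the list was not chosen blind to these data, its count against all genes is a description. Of the 35 genes, 34 had a log2 ratio of STAP-1 KO to WT (with 0.1 FPKM added to each level) below 0, and the only one above 0 was Atp6v0c. The median log2 ratio of the list was -1.07, and over the 10974 genes whose mean was 1 FPKM or more it was -0.04. The summed level of the 36 genes was 9414 FPKM in WT LSCs and 2879 FPKM in STAP-1 KO LSCs, 3.27-fold lower, and their share of all FPKM was 1.45% and 0.476%. The 4 genes with the highest WT levels, Ctsd, Glb1, Ctsc and Cd63, made up 67.0% of the sum in WT LSCs and 38.2% in STAP-1 KO LSCs. The other 32 genes together had 3107 FPKM in WT LSCs and 1779 FPKM in STAP-1 KO LSCs, 1.75-fold lower. Because the 4 genes were picked by their WT level, a larger fall in them is in part built in by the choice.

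**Figure D1:**
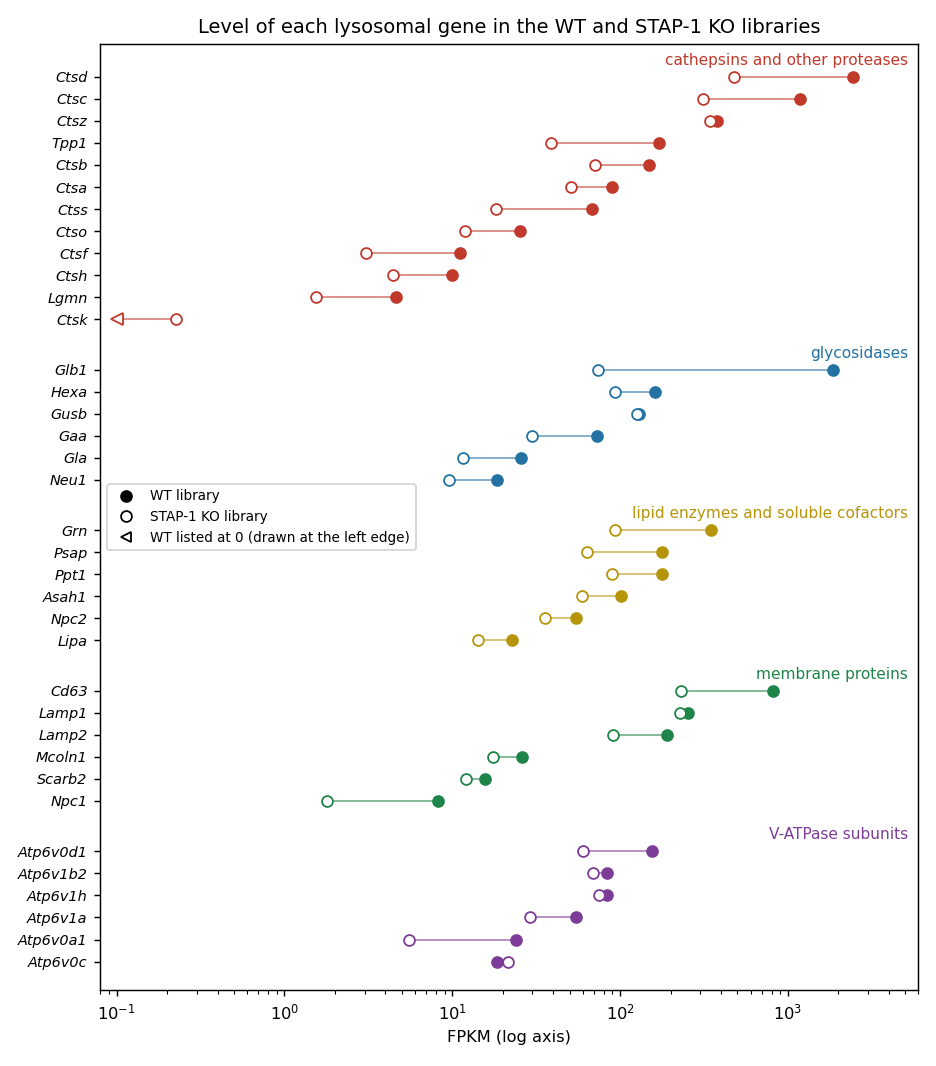
FPKM (log axis) of each of the 36 lysosomal genes in WT LSCs (filled circles) and STAP-1 KO LSCs (open circles), grouped by role and ordered by WT level. Ctsd, from 2453 to 480 FPKM, and Glb1, from 1849 to 74.3 FPKM, stand apart from near-equal pairs such as Ctsz, Gusb and Lamp1, and Ctsk is drawn at the left edge because it was listed at 0 in WT LSCs.

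Markers of other cell types moved between the same libraries, in which 22.9% of all genes compared were at least 2-fold lower and 12.3% were higher. Of 12 mast cell and basophil markers, 11 were lower in STAP-1 KO LSCs by 2-fold or more, none was at 0 in either library, and their summed level was 52279 FPKM in WT LSCs and 5364 FPKM in STAP-1 KO LSCs. Tpsb2 and Tpsab1, which encode mast cell tryptases, had 7016 and 430 FPKM in WT LSCs and 185 and 8.74 FPKM in STAP-1 KO LSCs, and Il1rl1, the interleukin 33 receptor, had 521 and 23.3 FPKM. Genes of neutrophil precursors went the other way, since 6 of 6 were higher in STAP-1 KO LSCs by 2-fold or more and their sum was 571 and 4666 FPKM. Among them were Prtn3 and Ctsg, for granule proteases, at 57.4 and 104 FPKM in WT LSCs and 525 and 841 FPKM in STAP-1 KO LSCs, and Ms4a3 at 41.5 and 460 FPKM. Mature neutrophil markers were lower in 5 of 8 genes, with sums of 416 and 187 FPKM and with the granule or calcium-binding protein genes S100a9, Camp and Ngp at 104, 18.8 and 52.3 FPKM in WT LSCs and 30.04, 5.13 and 9.72 FPKM in STAP-1 KO LSCs. Of 10 monocyte and macrophage markers compared, 3 were lower (30%, near the share of all genes) and 3 were higher, with sums of 105 and 129 FPKM. Among them were Emr1 (F4/80) at 30.7 and 4.34 FPKM, the chemokine receptor gene Ccr2 at 41.8 and 10.3 FPKM and Ly6c2 at 20.5 and 97.96 FPKM. None of these lists had a gene at 0 in either library. Of 7 dendritic cell markers compared, 5 were lower and 1 was higher, and the sum of 1236 and 336 FPKM was mostly that of Cd74 (963 and 226 FPKM) and H2-Aa (245 and 81.8 FPKM), genes of antigen presentation, while Itgax (CD11c) had 2.97 and 0.375 FPKM.

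In the other marker lists, genes moved in both directions or few were detected. Their counts come from few genes and stand against 22.9% lower and 12.3% higher among all genes compared. Eosinophil markers were lower in 2 of 5 genes compared and higher in 3, and their sum of 38.6 and 90.9 FPKM turned on Prg2 (2.12 and 61.7 FPKM), with Epx at 1.02 and 8.62 FPKM and Ear1 at 0 and 2.46 FPKM. Erythroid markers were lower in 4 of 8 genes and higher in 1, with sums of 2602 and 1293 FPKM, with Slc4a1 at 48.3 and 12.4 FPKM, and with the near-identical globin copies Hba-a1 (34.8 and 380 FPKM) and Hba-a2 (773 and 15.9 FPKM), which are uncertain one by one. Megakaryocyte and platelet markers were lower in 3 of 7 genes and higher in 1, with sums of 218 and 137 FPKM, among them Itga2b at 123 and 32.5 FPKM, Gp1ba at 19.6 and 4.43 FPKM and Ppbp at 5.05 and 17.97 FPKM. Of 6 B cell markers, 4 were at 0 in WT LSCs and 3 in STAP-1 KO LSCs, and the sum of 3.60 and 17.98 FPKM was mostly Cd79b (3.10 and 17.8 FPKM). T cell and NK cell markers had sums of 4.93 and 7.56 FPKM, with Cd3g at 1.80 and 5.04 FPKM. In bulk libraries, fewer cells of a type and less RNA per cell cannot be told apart, and the part of these markers in the lysosomal values was not tested.

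Short promoter stretches are shown here for 6 of the genes, because they carry the CACGTG motif and differ in how far the gene was lower. RefSeq sequences (GRCm38.p6) from 250 bases before to 50 bases after the start of transcription were given for 30 of the 36 genes and not for Ctsb, Ctsh, Asah1, Npc1, Atp6v1b2 and Atp6v1h. Each line is 30 bases, 5′ to 3′ on the strand of the gene, and the capitals mark CACGTG:
Ctsd: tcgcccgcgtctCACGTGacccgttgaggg
Glb1: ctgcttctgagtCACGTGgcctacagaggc
Atp6v0d1: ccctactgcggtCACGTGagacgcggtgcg
Gaa: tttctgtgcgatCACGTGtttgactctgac
Mcoln1: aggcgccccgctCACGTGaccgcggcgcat
Lamp1: acgtgaccacatCACGTGcggaacggagcc

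The Ctsd stretch lies at chr7:142387908-142387937 on the minus strand, in an untranslated exon of the gene in GENCODE M21, and the Mcoln1 stretch at chr8:3500462-3500491 on the plus strand, also in an untranslated exon. In the others CACGTG lies upstream of the gene, with the stretches for Glb1 at chr9:114401018-114401047 (plus), Atp6v0d1 at chr8:105566050-105566079 (minus), Gaa at chr11:119267811-119267840 (plus) and Lamp1 at chr8:13159134-13159163 (plus). The last bases of the Lamp1 stretch reach into the gene, which starts at 13159161. CACGTG, which reads the same on both strands, was present in 11 of 30 promoters (36.7%), against 8.09% of 27025 genes with a promoter sequence and 12.4% of the 7891 of them that averaged 1 FPKM or more. The longer TCACGTG, which contains it and was searched on both strands, was found in 10 of 30 (33.3%), against 4.29% and 7.38%. TCACGTGA, its own reverse complement and a form that contains both, was found in 6 of 30 (20%), against 1.12% and 2.47%. The 11 genes with CACGTG were Ctsa, Ctsd, Ctsf, Lgmn, Gaa, Glb1, Gla, Lamp1, Mcoln1, Atp6v0d1 and Atp6v1a.

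Genes with and without the motif overlapped in their ratios. Among the 11 with CACGTG, 7 were at least 2-fold lower, against 22.9% of all genes, and the median log2 ratio was -1.29. Among the 18 others with a promoter sequence that averaged 1 FPKM or more, 9 were lower and the median was -1.03. For the 6 with TCACGTGA, which were Ctsa, Ctsd, Gla, Mcoln1, Atp6v0d1 and Atp6v1a, 3 were lower and the median was -1.03. The Lamp1 promoter held CACGTG 4 times and the gene was 1.11-fold lower, while Glb1 held it once and was 24.9-fold lower. A match is a description of letters in this stretch and does not show that a factor binds there.

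The cathepsins and other proteases were the role with the lowest median log2 ratio, -1.53 over 11 genes. Of these, 9 of 11 were at least 2-fold lower (81.8%, against 22.9% of all genes). For the cathepsins alone, without Lgmn and Tpp1, 7 of 9 were lower and the median was -1.13, close to the -1.05 of the glycosidases. At like transcript length these medians were farther apart, -1.52 and -1.06, and with GC content as well they were -1.54 and -0.87. Cathepsin D, an aspartic protease, was the most abundant of the 36 genes in both libraries. Ctsd, on chromosome 7 from 142375911 to 142388038 on the minus strand of GRCm38, had 2453 FPKM in WT LSCs and 480 FPKM in STAP-1 KO LSCs, 5.11-fold lower (4.999 to 5.23). In GENCODE M21, 34.4% of its exon bases are shared with the same-strand gene model Gm49369. That symbol was not listed in the data, and whether reads there were divided between them cannot be told. Cathepsin C (dipeptidyl peptidase 1, which activates the serine proteases of granules) had 1184 and 314 FPKM, and Ctsc was 3.78-fold lower (3.69 to 3.86). Tripeptidyl peptidase 1, which cuts tripeptides from the amino end of proteins, was encoded by Tpp1 at 171 and 38.8 FPKM, 4.41-fold lower (4.15 to 4.70). On the deposited values, Ctsd and Tpp1 were the proteases past a 4-fold difference.

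The cysteine cathepsins spanned a wide range of ratios. Ctss, for cathepsin S of antigen-presenting cells, had 67.9 FPKM in WT LSCs and 18.2 FPKM in STAP-1 KO LSCs and was 3.72-fold lower. Ctsf, for cathepsin F, had 11.1 and 3.08 FPKM and was 3.60-fold lower. Ctsb, for the broadly expressed cathepsin B, had 149 and 70.7 FPKM, 2.10-fold lower (2.01 to 2.199). These 3 genes were past the cut-off, Ctsb only just, and its log2 ratio went from -1.07 to -0.40 when genes were compared at like transcript length, which ended the call. Ctsh, for the aminopeptidase cathepsin H, had 9.90 and 4.46 FPKM and was 2.22-fold lower (1.62 to 3.07), and with a pseudocount of 1 FPKM its log2 ratio of -0.998 fell just short of the cut-off. Ctso, for cathepsin O, had 25.4 and 11.9 FPKM and was 2.13-fold lower, and its log2 ratio of -0.97 at like transcript length fell just short too. Legumain, an asparaginyl endopeptidase that processes cathepsins, had a low level, with Lgmn at 4.64 and 1.55 FPKM, 2.999-fold lower (1.89 to 4.81), and with 62.0 and 28.9 estimated reads behind these values.

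Ctsz, for the carboxypeptidase cathepsin Z, was nearly equal in the libraries, with 377 FPKM in WT LSCs and 344 FPKM in STAP-1 KO LSCs, 1.10-fold lower (1.05 to 1.15). It was the fifth of the 36 genes by level in WT LSCs and came directly after Ctsd in STAP-1 KO LSCs. Ctsa, for the serine carboxypeptidase cathepsin A that protects beta-galactosidase and neuraminidase, had 89.9 and 51.1 FPKM and was 1.76-fold lower, short of the cut-off. Ctsk, for the osteoclast protease cathepsin K, was listed at 0 in WT LSCs and had 0.225 FPKM in STAP-1 KO LSCs, about 3.07 estimated reads, and was not compared. In exon bases, Ctsa is overlapped on the opposite strand by Pltp (10.5%) and Neurl2 (6.87%), and Ctsb by Fdft1 (12.8%). Strand was not given in the sources used here, so such reads cannot be told apart. Pltp had 0.754 and 0.0598 FPKM, Neurl2 0.855 and 1.24 FPKM, and Fdft1 12.4 and 10.6 FPKM, all below the levels of the cathepsin genes they overlap.

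**Figure D2:**
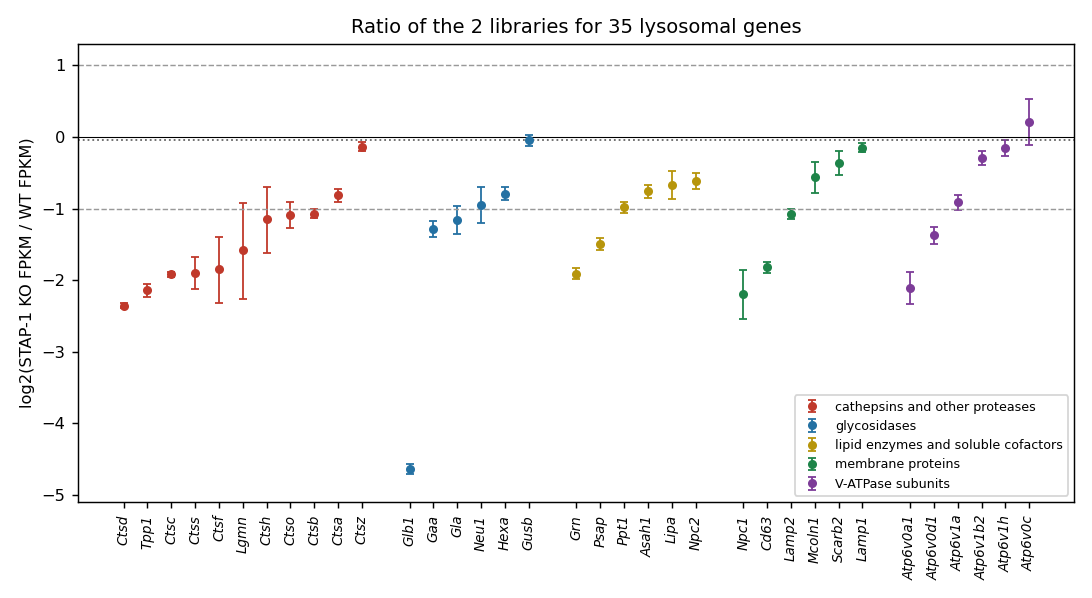
Log2 ratio of STAP-1 KO to WT FPKM for the 35 lysosomal genes compared, grouped by role. Points are the ratios, bars the 95% interval of counting error from estimated reads, dashed lines 2-fold in either direction and the dotted line the median of all genes (-0.04). Glb1 lies lowest, and Ctsz, Gusb, Lamp1, Atp6v1h and Atp6v0c lie near 0.

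Among the glycosidases, 3 of 6 genes (50%, against 22.9% of all genes) were at least 2-fold lower, the median log2 ratio was -1.05, and 1 gene stood apart. Glb1, for the lysosomal beta-galactosidase, is on chromosome 9 from 114401076 to 114474898 on the plus strand and had 1849 FPKM in WT LSCs and 74.3 FPKM in STAP-1 KO LSCs, 24.9-fold lower (23.7 to 26.2). It was the gene with the largest difference of the 35 compared and stood directly after Ctsd by level in WT LSCs but at position 12 in STAP-1 KO LSCs. Tmppe, a gene on the same strand that shares 5.49% of the Glb1 exon bases, had 52.1 and 3.997 FPKM, so the overlap holds a gene that was itself 13.04-fold lower at a much lower level. Without Glb1, 18 of 34 genes were lower, and the sum of the others was 7565 FPKM in WT LSCs and 2805 FPKM in STAP-1 KO LSCs, 2.70-fold lower.

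The other glycosidases differed less. Gaa, for the acid alpha-glucosidase that degrades glycogen, had 72.6 FPKM in WT LSCs and 29.7 FPKM in STAP-1 KO LSCs and was 2.44-fold lower. Gla, for alpha-galactosidase A, had 25.8 and 11.6 FPKM and was 2.23-fold lower. Both were past the cut-off, but the log2 ratio of Gaa went from -1.29 to -0.69 with the correction for length and GC content, which ended its call. Neu1, for the neuraminidase that removes sialic acid, had 18.4 and 9.52 FPKM, 1.93-fold lower (1.62 to 2.30), with an interval that includes the cut-off. Hexa, for the alpha subunit of hexosaminidase, had 161 and 92.9 FPKM and was 1.73-fold lower. Its exons overlap by 12.8% with Tmem202 on the opposite strand, which had 2.04 and 0.273 FPKM. Gusb, for beta-glucuronidase, had 130 and 126 FPKM, and its ratio of 1.03-fold lower (0.978 to 1.09) could not be told from equal levels even by counting error alone.

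Of the lipid enzymes and soluble cofactors, 2 of 6 genes (33.3%, against 22.9% of all genes) were at least 2-fold lower, which is near the background for so few genes, and the median log2 ratio was -0.87. Both were genes for precursors that are cut into several smaller proteins. Grn, for progranulin, the precursor of granulins, had 348 FPKM in WT LSCs and 92.7 FPKM in STAP-1 KO LSCs and was 3.76-fold lower (3.57 to 3.95). Psap, for prosaposin, the precursor of the saposins that present sphingolipids to hydrolases, had 178 and 63.3 FPKM and was 2.81-fold lower (2.65 to 2.99). On the deposited values the lipid-handling enzymes themselves were short of the cut-off. Ppt1, for the palmitoyl-protein thioesterase, had 177 and 89.4 FPKM and lay just outside the cut-off at 1.98-fold lower (1.87 to 2.09), and its log2 ratio of -0.98 passed the cut-off at -1.24 with the length correction, -1.39 with GC content as well and -1.04 with equal upper quartiles. Asah1, for acid ceramidase, had 101 and 59.7 FPKM and was 1.69-fold lower. Lipa, for lysosomal acid lipase, had 22.6 and 14.2 FPKM and was 1.59-fold lower. Npc2, for the soluble cholesterol carrier of the lysosome, had 54.9 and 35.8 FPKM and was 1.53-fold lower. All 6 values were below their WT level, and those of the 4 enzymes and carriers short of the cut-off lay between 1.53 and 1.98-fold.

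The membrane proteins were divided, with 3 of 6 genes at least 2-fold lower (50%, against 22.9% of all genes), Lamp2 only just, and a median log2 ratio of -0.82. Cd63, for a tetraspanin of late endosomes, lysosomes and granules, had 820 FPKM in WT LSCs and 232 FPKM in STAP-1 KO LSCs and was 3.53-fold lower (3.36 to 3.72). Of the 75-base stretches of its transcript, 27.1% also occur in the transcribed pseudogene Cd63-ps, so that reads could be divided between them. Npc1, for the membrane protein that passes cholesterol on from Npc2, had 8.27 and 1.80 FPKM and was 4.58-fold lower (3.62 to 5.81), the largest difference of this role on the deposited values at its lowest level. At like transcript length its log2 ratio went from -2.14 to -1.51 and that of Cd63 from -1.82 to -2.35, so that Cd63 then had the largest difference. Its soluble partner gene Npc2 had not passed the cut-off.

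The main lysosome-associated membrane glycoproteins differed from each other. Lamp2 had 190 FPKM in WT LSCs and 90.2 FPKM in STAP-1 KO LSCs and was 2.11-fold lower (2.01 to 2.202), just inside the cut-off, and at like transcript length its log2 ratio of -0.95 was just outside. Lamp1 had 254 and 229 FPKM and was 1.11-fold lower (1.06 to 1.16). The ratio of Lamp2 to Lamp1 was therefore not the same in the libraries beyond counting error, since their intervals do not overlap. Mcoln1, for the calcium channel mucolipin, had 25.9 and 17.5 FPKM and was 1.48-fold lower, and Scarb2, for the receptor that carries glucocerebrosidase to lysosomes, had 15.6 and 12.1 FPKM and was 1.29-fold lower. Both were short of the cut-off, and the log2 ratio of Scarb2 turned from -0.36 to 0.31 when genes were compared at like transcript length. Exon bases of Lamp1 overlap by 9.31% with Grtp1 on the opposite strand, which had 3.51 and 11.3 FPKM.

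The V-ATPase subunits were the role with the smallest difference, with 2 of 6 genes at least 2-fold lower (33.3%, near the 22.9% of all genes) and a median log2 ratio of -0.60. In each of 8 alternative settings the median of the proteases was the lowest of the 5 roles and that of the V-ATPase subunits the highest, whereas the roles between them changed places with the correction for length and GC content. Both belong to the V0 sector. Atp6v0a1, for an isoform of the large membrane subunit a, had 23.9 FPKM in WT LSCs and 5.56 FPKM in STAP-1 KO LSCs and was 4.29-fold lower (3.69 to 5.02). Atp6v0d1, for the subunit d that links the sectors, had 155 and 59.9 FPKM and was 2.59-fold lower (2.38 to 2.81). Atp6v0c, for the subunit that forms the proton-carrying ring, was not lower. It had 18.5 and 21.4 FPKM, and the ratio of 1.15-fold higher had a counting interval from 0.929 to 1.44. Of its 75-base stretches, 28.5% occur in a processed pseudogene, and its log2 ratio changed from 0.21 to -0.35 when genes were compared at like transcript length.

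None of the V1 subunits passed the cut-off. Atp6v1a, for the catalytic subunit A, had 54.5 FPKM in WT LSCs and 29.0 FPKM in STAP-1 KO LSCs and was 1.88-fold lower. Atp6v1b2, for its partner subunit B, had 83.7 and 68.6 FPKM and was 1.22-fold lower. Atp6v1h, for the regulatory subunit H, had 83.4 and 74.9 FPKM and was 1.11-fold lower. The sum of the 3 V0 genes was 197 FPKM in WT LSCs and 86.9 FPKM in STAP-1 KO LSCs, 2.27-fold lower, and that of the 3 V1 genes was 222 and 173 FPKM, 1.28-fold lower. With 3 genes a sector and 1 library a genotype, the difference between sectors is a description.

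Near the cut-off, Ctsb (2.10-fold), Lamp2 (2.11-fold) and Ctso (2.13-fold) were just inside, and Ppt1 (1.98-fold) and Neu1 (1.93-fold) just outside. The genes past 4-fold were Glb1, Ctsd, Npc1, Tpp1 and Atp6v0a1. At like transcript length, Npc1 (-1.51) and Atp6v0a1 (-1.69) were no longer past 4-fold, and Ctss (-2.45), Cd63 (-2.35), Grn (-2.17) and Ctsf (-2.08) were. At a 1.5-fold cut-off, 27 of 35 genes were lower, against 32.8% of all genes, and 0 were higher. The lysosomal genes were also among the abundant ones. Their median level was 83.7 FPKM in WT LSCs and 51.1 FPKM in STAP-1 KO LSCs, compared with 16.3 and 14.04 FPKM over the 10974 genes whose mean was 1 FPKM or more, and 16 of 35 ranked in the top 10% of those genes in WT LSCs but 6 of 35 in STAP-1 KO LSCs. The order within the list changed too, with Glb1 from position 2 to 12, Tpp1 from 11 to 19, Gusb from 15 to 6 and Atp6v1h from 19 to 11. Without replicates, it is not known which neighbours in this order differ beyond their spread.

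**Figure D3:**
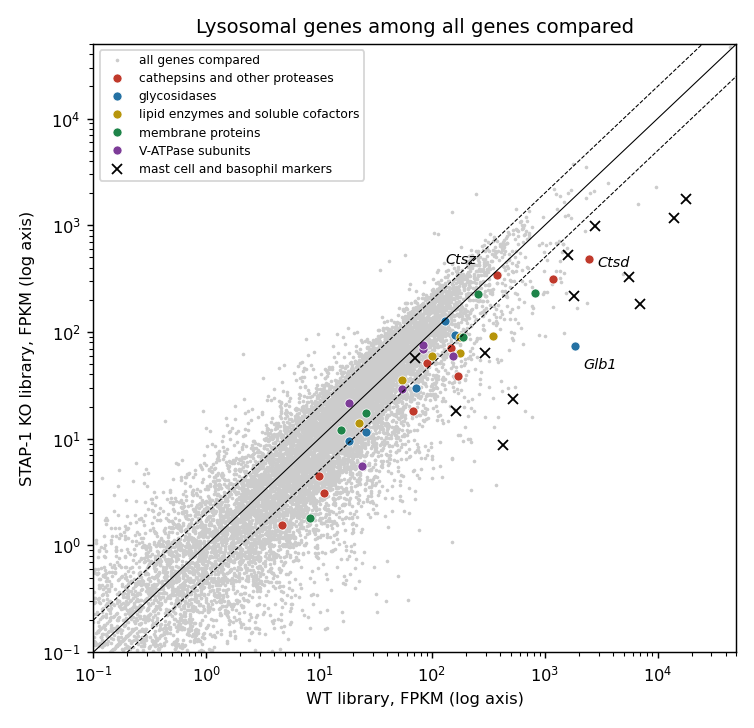
FPKM in STAP-1 KO LSCs against FPKM in WT LSCs (both log axes) for all 12507 genes compared (gray), the 35 lysosomal genes (colored by role) and the mast cell and basophil markers (crosses). The solid line marks equal levels and the dashed lines 2-fold; 34 lysosomal genes lie below equal levels, Glb1 (1849 and 74.3 FPKM) is farthest from it among them, and 11 of 12 markers lie below the lower dashed line.

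The ratio of the libraries also varied with transcript length. Across genes, Spearman's rank correlation of log2 ratio and length was -0.40, a description within 1 pair of libraries in which genes are not independent. When genes were divided into equal groups of shorter, middle and longer transcripts, the median log2 ratio of all genes was 0.43, 0.04 and -0.67. The lysosomal genes in these groups had medians of -1.25 (12 genes), -1.03 (18 genes) and -1.07 (5 genes). Their lowest median was that of the shorter group, whereas for all genes it was that of the longer group, and this difference was not tested. In the shorter group 7 of 12 were lower, against 12.5% of all genes there, in the middle group 9 of 18, against 17.1%, and in the longer group 3 of 5, against 37.4%. After the median of genes of like length was taken off, the median of the list was -1.06 and 19 genes were lower, 16 of them the same. Ctsb, Ctso (-0.97) and Lamp2 (-0.95) lost their call, and Hexa (-1.06), Neu1 (-1.07) and Ppt1 passed the cut-off. With GC content also taken off, the median of the list was -1.08 and 18 of 35 genes were lower, against 18.5% of all genes. Of these, 17 were the same, with Ctsb (-0.38) and Gaa lost and Ppt1 gained.

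**Figure D4:**
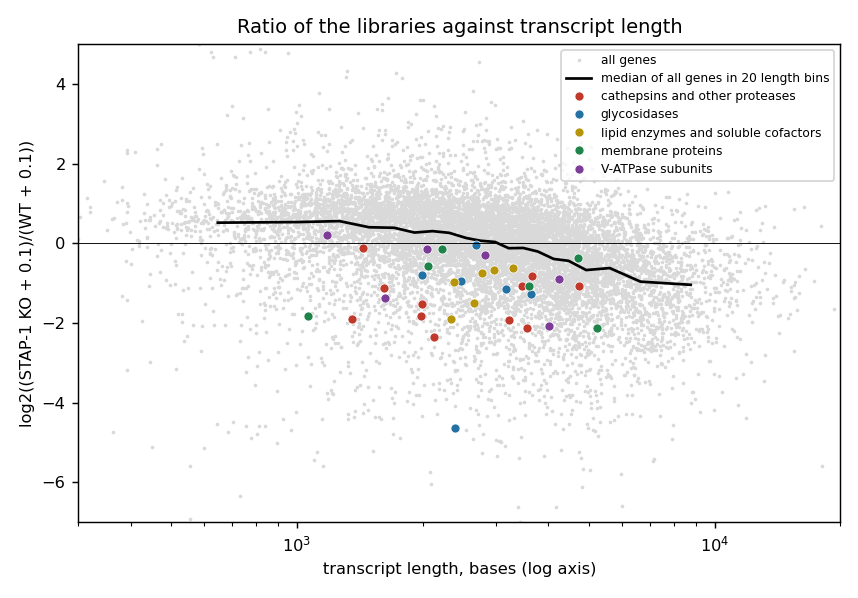
Log2((STAP-1 KO + 0.1)/(WT + 0.1)) against transcript length in bases (log axis) for all genes that averaged 1 FPKM or more (gray) and the lysosomal genes (colored by role). The line is the median of all genes in 20 bins of length and falls from left to right; most lysosomal genes lie below it at short and long transcripts alike.

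Related genes outside the 36 were grouped into 9 lists. Of 121 compared, 45 (37.2%) were at least 2-fold lower and 6 were higher, against 22.9% and 12.3% of all genes compared, and the median log2 ratio was -0.73. The shares of single lists that were lower ran from 0% to 80%. Other glycosidases and sulfatases were lower in 11 of 19 genes and higher in 0, with a median of -1.35. Ids, for the sulfatase that starts the breakdown of heparan and dermatan sulfate, had 67.9 FPKM in WT LSCs and 4.97 FPKM in STAP-1 KO LSCs, and Galc, for galactosylceramidase, had 19.95 and 1.61 FPKM. The other lipid enzymes, phosphatases and nucleases were lower in 6 of 10 genes and higher in 0, with a median of -1.27. In that list Pld3, for a lysosomal nuclease of the phospholipase D family, had 130 and 22.8 FPKM, and Gm2a, for the GM2 activator that works with hexosaminidase, had 193 and 49.3 FPKM. Rnaset2a was near 0 in WT LSCs and had 7.90 FPKM in STAP-1 KO LSCs, but shares reads with a near-identical copy and is uncertain.

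Of the remaining proteases, 0 of 8 were lower and 3 of 8 were higher, against 22.9% and 12.3% of all genes. Their log2 ratios ran from -0.99 to 3.01 with a median of 0.08, and the difference from the 11 proteases compared above was not tested. Ctsg, for the serine protease cathepsin G of neutrophil granules, had 104 FPKM in WT LSCs and 841 FPKM in STAP-1 KO LSCs and is also among the neutrophil precursor markers. Ctsw, for cathepsin W of cytotoxic lymphocytes, had 1.95 and 5.04 FPKM, and Pgcp, for a plasma carboxypeptidase, had 3.58 and 8.80 FPKM. Of 11 listed inhibitors of proteases, 5 were compared and 4 of these were lower (80%, against 22.9% of all genes), with a median of -1.51. Serpinb1a, for an inhibitor of neutrophil serine proteases, had 1549 and 232 FPKM, Serpinb6a, for an inhibitor of cathepsin G, had 67.0 and 16.5 FPKM, and Cstb, for the cathepsin inhibitor cystatin B, had 399 and 139 FPKM. Thus 4 of the 5 inhibitor genes compared were lower, as were 9 of the 11 proteases compared above, while Ctsg was higher.

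Other lysosomal membrane proteins were lower in 9 of 22 genes and higher in 1, with a median log2 ratio of -0.92. Laptm5, for a membrane protein of hematopoietic lysosomes, had 1371 FPKM in WT LSCs and 323 FPKM in STAP-1 KO LSCs, Cd68, for macrosialin, had 95.7 and 26.3 FPKM, and Clcn7, for a chloride and proton exchanger, had 22.8 and 7.14 FPKM. Other V-ATPase subunits were lower in 3 of 12 genes (25%, near the 22.9% of all genes) and higher in 0, with a median of -0.52, and without Atp6v0d2 in 2 of 11 (18.2%). Atp6v0d2, an isoform of subunit d known from osteoclasts and macrophages, had 25.0 and 0.874 FPKM, Atp6v0a2, another isoform of subunit a, had 58.6 and 23.4 FPKM, and Atp6ap1, for an accessory protein of the pump, had 285 and 142 FPKM. The matching roles among the 36 had medians of -0.82 and -0.60.

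Genes that deliver or regulate the enzymes formed 3 lists. Of 14 genes of mannose 6-phosphate and sortilin delivery, 2 were lower and 0 were higher, with a median log2 ratio of -0.59, and the share of 14.3% lower was below the 22.9% of all genes. Igf2r, for a mannose 6-phosphate receptor, had 3.84 FPKM in WT LSCs and 0.197 FPKM in STAP-1 KO LSCs, Ap1b1, for an adaptor subunit of transport vesicles, had 76.7 and 34.8 FPKM, and Gnptab, for the enzyme that makes the mannose 6-phosphate tag, had 28.9 and 14.6 FPKM and was short of the cut-off. In endolysosome fusion and transport, 4 of 14 genes (28.6%) were lower and 0 were higher, with a median of -0.60. Among them were Plekhm1, an adaptor for fusion, at 7.59 and 1.86 FPKM, Arl8a, a small GTPase of lysosome movement, at 63.7 and 19.2 FPKM, and Vps18, a core subunit of tethering complexes, at 14.7 and 5.79 FPKM. In the TFEB pathway and lysosomal nutrient sensing, 6 of 17 genes (35.3%) were lower and 2 were higher, with a median of -0.31, but with both libraries at 1 FPKM or more 3 of 14 were lower, near the 19.3% of all genes, and the sums were 719.9 and 722 FPKM. Mitf had 12.7 and 0.878 FPKM, and Fnip1 and Fnip2, for partners of folliculin, had 13.3 and 4.94 FPKM in WT LSCs and 1.64 and 0.291 FPKM in STAP-1 KO LSCs. Named after their values were seen, Tfeb had 5.30 and 5.50 FPKM and Tfe3 had 21.8 and 6.87 FPKM.

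**Figure D5:**
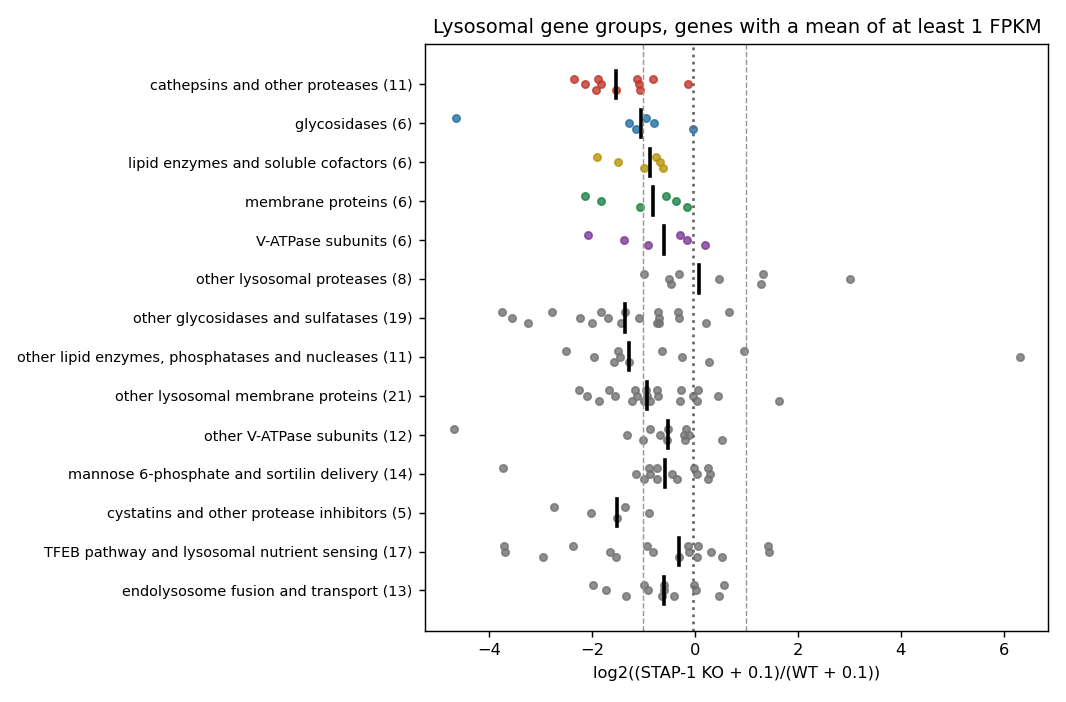
Log2((STAP-1 KO + 0.1)/(WT + 0.1)) of single genes (points) and their median (black bars) in the 5 roles of the 36 lysosomal genes (colored) and in 9 lists of related genes (gray), for genes that averaged 1 FPKM or more, whose number is in parentheses. The dotted line is the median of all genes (-0.04) and the dashed lines are 2-fold; 13 of the 14 medians lie below the dotted line, and that of the other lysosomal proteases (0.08) lies above it.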

How the data were processed

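The authors deposited FPKM values of 1 WT and 1 STAP-1 KO library, which they made from 75-base single reads of SMART-Seq v4 cDNA (Nextera XT libraries). Mapping to mm10 used TopHat 2.0.13 together with Bowtie2 2.2.3, with SAMtools 0.1.19 in the submitters' processing notes, and Cuffnorm of Cufflinks 2.2.1 gave the values. The methods name an RNeasy Mini kit and the labels a miRNeasy kit. The gene annotation, strand setting and read totals were not given in the sources used here. FPKM divides by length and total, so a fall of very abundant genes raises the values of others.

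Python 3.11.15 was used for the ratios (pandas 2.3.3, numpy 2.4.6, scipy 1.17.1) and the plots (matplotlib 3.10.9). Genes were called at a 2-fold ratio, without a pseudocount, where both libraries had at least 0.1 FPKM. Log2 ratios used a pseudocount of 0.1 FPKM, which understates changes of low genes, and medians took genes that averaged 1 FPKM or more. With 1 library per group, no test was run and no p-value computed. The lists and the 36 genes were chosen with earlier results of these data known. All 36 genes were named, with up to 3 genes per related or marker list whose log2 ratio with 1 FPKM added was farthest from 0 among those averaging 1 FPKM or more, and Stap1. Tfeb, Tfe3 and the genes that overlap a listed gene were added outside this rule. A related gene chosen in this way is not reported here. Listed symbols absent from the data were matched through RefSeq synonyms.

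Transcript lengths and coordinates came from GENCODE M21 (GRCm38). For 20911 of 23284 symbols the name was found directly, for 1915 under a newer name, and for 458 not at all. Estimated reads are FPKM times effective depth and transcript length less 208 bases. Low values were whole reads within 0.01 for 46.4% of 323 genes (WT) and 47.7% of 398 genes (STAP-1 KO), so the estimates are approximate. The steps were checked on simulated data made of whole reads, which cannot show how well the estimates hold for the deposited values. Alternatives changed the floor, pseudocount, scaling, cut-off, and the correction for length and GC content.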

Additional observations from a re-analysis of the deposited data

How the results depend on the processing

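Without replicates the spread between mice is unknown, counting error is the only error given, and no library could be left out. No paired analysis was possible because each genotype had 1 library and no result came from a test. Under 8 alternatives the median log2 ratio of the lysosomal genes ranged from -1.13 to -1.03, of the proteases from -1.82 to -1.15, of the glycosidases from -1.10 to -0.87, of the lipid enzymes and cofactors from -1.18 to -0.83, of the membrane proteins from -0.98 to -0.77, and of the V-ATPase subunits from -0.65 to -0.48. The number of genes called lower was 5 at a 4-fold cut-off (8.56% of all genes were lower). At the 2-fold cut-off it was 18 with a pseudocount of 1 FPKM (16.3%) and 21 with equal upper quartiles (24.1%), and 0 were higher in each. The share of all FPKM was 1.58% (WT) and 0.481% (STAP-1 KO) without the mast cell and basophil markers in the total, 1.46% (WT) without hemoglobin, ribosomal RNA and mitochondrial genes, and 1.60% and 0.551% without transcripts under 200 bases. Changes of floor left the log2 ratios of single genes as they were by construction, and the scalings moved all genes alike. The sign of a single gene changed only with the corrections for length and GC content, for Scarb2 (0.31 with the length correction and 0.25 with GC content as well), Atp6v0c (-0.35 and -0.14) and Gusb (0.03 with both corrections).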
